A study of Mus musculus with 2 samples.

Results

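The cells described here are macrophages of MC38 tumours with the most RNA of Nos2, Ly6i, Ly6c2 and Ass1. MC38 is a mouse colon adenocarcinoma cell line. A barcode with at least 1000 UMIs (unique molecular identifiers, each standing for a captured RNA molecule) and at most 20% mitochondrial UMIs was taken as a macrophage if C1qa, C1qb and C1qc, the chains of complement C1q, together had at least 5 UMIs and at least 20 per 10000, if Cd3d and Cd3e were at 0, and if the tumour genes Hmga2 and Rhox5 had at most 2 UMIs. Of 7778 such macrophages, the top 15% by the summed UMIs of the 4 genes per 10000 UMIs, the score, were taken, which gave 1166 high-score macrophages against 6612 other macrophages. They were 1166 of 28363 barcodes that passed the limits on UMIs and mitochondrial RNA. Because these 4 genes chose the cells, and every other gene was counted in the cells so chosen, all differences from the other macrophages are descriptions without a test.

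The series holds 2 droplet libraries, 1 per group. The control library came from an MC38 tumour sample labelled WT, with the genotype Mbtps1 WT, and the knockdown library from one labelled SHM, with the genotype Mbtps1 KD, which the series text calls a knockout. Mbtps1 encodes site-1 protease, which cuts membrane-bound transcription factors in the Golgi, and the study asks how its loss relates to the cells around the tumour. Both groups share the MC38 line, and the labels do not say by what means Mbtps1 was reduced. The labels and series text used here do not state the strain, sex, age or number of the host mice, or whether tumours were pooled. With 1 library per group there was no replicate, no comparison between the libraries could be tested, and all intervals are 95% intervals that cover counting error only.

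Inducible nitric oxide synthase, encoded by Nos2, makes nitric oxide from arginine, and argininosuccinate synthase, encoded by Ass1, is an enzyme of the path that rebuilds arginine from the citrulline that this leaves. Ly6c2 encodes the Ly6C antigen by which inflammatory blood monocytes are recognised, and Ly6i is a neighbouring gene of the same family. Monocytes that enter a tumour are known to lose Ly6C as they become macrophages, and interferon-gamma with microbial or inflammatory signals is the classical inducer of Nos2.

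The high-score class was the upper end of a continuous range. The lowest score inside was 6.11 per 10000, from 4 score UMIs of 6543, and the highest outside also came from 4 score UMIs, of 6546. Of the high-score macrophages, 155 (13.3%) lay within 20% above the limit, and 221 other macrophages lay within 20% below it. No score UMI was found in 53.2% of control and 53.8% of knockdown macrophages. A single UMI was enough to enter the class in a cell of fewer than 1635 UMIs, and 12 control and 17 knockdown high-score macrophages entered it on 1 score UMI. The median score of the class was 12.4 per 10000 in each library.

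**Figure D1:**
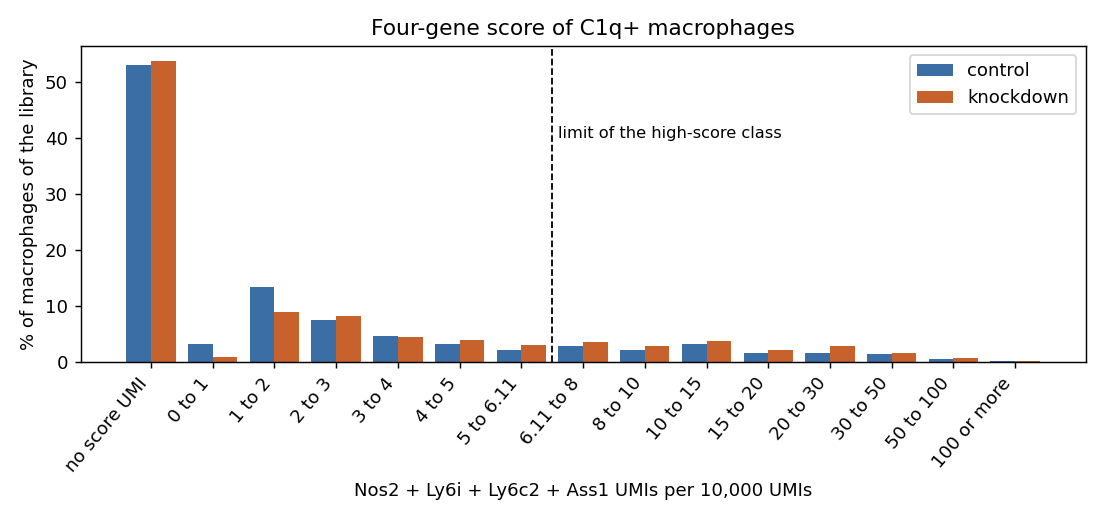
Share of the macrophages of each library (vertical axis, percent) by the summed UMIs of Nos2, Ly6i, Ly6c2 and Ass1 per 10000 UMIs (horizontal axis, bins of unequal width). In each library 1 bar, at no score UMI, holds over 50% of the cells, and no gap separates the cells above the limit of 6.11 (dashed line) from those below it.

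The class took 547 of 4182 control macrophages, or 13.1% (exact Clopper-Pearson interval 12.1 to 14.1), and 619 of 3596 knockdown macrophages, or 17.2% (16.0 to 18.5), a knockdown over control ratio of 1.32 (1.18 to 1.46). Depth moved with this difference: the median UMIs of high-score macrophages were 5031 in control and 3660 in knockdown, and those of other macrophages 6608 and 4638. Among macrophages of 2000 to under 5000 UMIs the order turned, at 23.2% for control against 21.0% for knockdown (ratio 0.904, 0.785 to 1.04). The share was 13.1% against 25.4% at 1000 to under 2000 UMIs, 9.68% against 11.03% at 5000 to under 10000, and 8.76% against 9.35% from 10000 UMIs, where 10 knockdown cells were in the class. With each macrophage thinned to 1000 UMIs before scoring, the ratio was 1.11. The part of depth in the difference was not tested further. Relative to all kept barcodes the order was the opposite, at 4.43% for control against 3.87% for knockdown (ratio 0.873, 0.780 to 0.977), beside a share of macrophages of 33.9% in control and 22.5% in knockdown.

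Each of the 4 genes was found in only part of the class. Nos2 stood at 370 CPM (counts per 1e+06 summed UMIs of the class) in control and 439 CPM in knockdown high-score macrophages, with a UMI in 46.8% and 47.7% of them. Ly6i stood at 394 and 413 CPM, with a UMI in 60.1% and 54.9%. Ly6c2 stood at 577 and 525 CPM, with a UMI in 61.4% and 53.0%, and Ass1 at 267 and 220 CPM, with a UMI in 66.4% and 53.2%. All 4 genes together were found in 12.1% of control and 4.68% of knockdown high-score macrophages, and 1 gene alone in 19.9% and 26.3%. These counts are from the 3' ends of transcripts, so that a level of 1 gene was set only against the same gene in other cells. Ly6i and Ly6c2 lie on chromosome 15 (GRCm38, GENCODE vM21, matched by gene identifier) with their relatives Ly6a and Ly6c1, and the sources do not state how reads shared by these similar genes were assigned, so that the split between them is uncertain. Ly6i is at chr15:74979534-74983430 and Ly6c2 at chr15:75108158-75111970, both on the minus strand, and Nos2 is at chr11:78920787-78960254 and Ass1 at chr2:31470207-31520672, both on the plus strand.

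Below the limit, which holds the score down, Nos2, Ly6i and Ly6c2 were near or below their CPM in empty droplets and Ass1 above it. That CPM gives the make-up of free RNA and not the amount of it in a cell, which was not measured. Other macrophages had 21.6 and 26.3 CPM of Nos2 (control and knockdown), against 21.0 and 24.9 CPM in empty droplets, that is, barcodes of at most 100 UMIs, from 47 Nos2 UMIs in each library. They had 13.1 and 12.4 CPM of Ly6i, 15.6 and 18.97 CPM of Ly6c2, and 49.0 and 47.5 CPM of Ass1, against 22.3 and 17.5, 62.9 and 79.5, and 26.3 and 18.0 CPM in empty droplets. T cells, which should lack Nos2, had 2.71 and 5.31 CPM of it, with a Nos2 UMI in 1.08% and 1.38% of cells at median depths of 3114 and 2335 UMIs. Other macrophages had a Nos2 UMI in 9.24% and 9.57% of cells. With cells thinned to 1000 UMIs, the shares were 1.82% and 2.12% in other macrophages and 0.216% and 0.459% in T cells, so that Nos2 in other macrophages was above that in T cells. Ly6c2 was also found in T cells, at 446 and 647 CPM. A comparison set of 374 control and 439 knockdown monocytes, defined by at least 2 Ly6c2 UMIs, at least 5 Lyz2 UMIs and C1q under 20 per 10000, had 106 and 182 CPM of Nos2, 343 and 381 CPM of Ly6i and 223 and 211 CPM of Ass1. Their Nos2 was lower than that of the high-score macrophages, and their Ly6i and Ass1 were within 1.5-fold of the levels there. The score chose the high-score macrophages by these genes and the monocytes were not so chosen, so that nothing is read from these differences. This set was chosen after its values were seen, and its Ly6c2 is set by its rule.

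**Figure D2:**
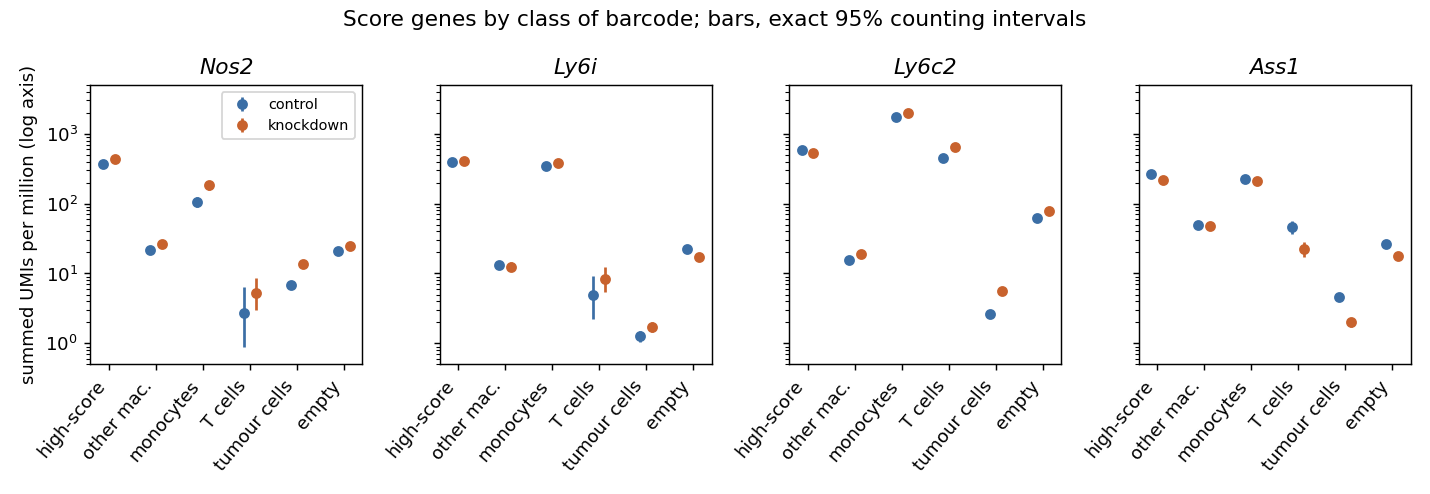
Level of the 4 score genes (vertical axes, CPM, log axis) in high-score and other macrophages, C1q-low Ly6c2 monocytes, T cells, tumour cells and empty droplets, by library, with exact Poisson intervals except for empty droplets. The high-score macrophages reach 439 CPM of Nos2, the monocytes 182 CPM, and the other macrophages lie close to the empty droplets for Nos2.

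The 4 genes tended to occur in the same cells. When 1 gene was left out of the score and the top 15% taken by the other 3, the left-out gene was still higher in the class so chosen than in the rest. The ratio for Ly6i was 11.5 (10.4 to 12.7) in control and 8.13 (7.25 to 9.13) in knockdown, and that for Ly6c2 was 7.31 and 6.17. For Nos2 it was 4.79 (4.33 to 5.28) and 2.78 (2.48 to 3.10), and for Ass1 3.49 and 2.63. Across macrophages thinned to 1000 UMIs, Ly6i and Ly6c2 were found together 4.46 times as often as independence would give in control and 4.20 times in knockdown, the highest of the 6 pairs in each library. Nos2 and Ly6c2 were found together 2.66 and 1.86 times as often, and the other 4 pairs lay between 1.84 and 3.52. These are descriptions over cells of 1 library each. The 4 genes were chosen with earlier results of these data known, so that their joint occurrence is no support for the class. For Ly6i and Ly6c2, the split of reads between these similar genes is also uncertain.

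Of 3061 genes measured in both classes and both libraries, 149 (4.87%) were at least 1.5-fold higher in high-score than in other macrophages in both libraries, and 123 (4.02%) were at least 1.5-fold lower in both, with the 4 score genes among the first and C1qc among the second. Nothing is read from these shares, since the classes were chosen on the same cells. The same shares belong beside the count of each list below, where 0 calls in a short list is near them. A gene was measured if it had at least 50 UMIs and reached 50 CPM in 1 of the classes, in each library. Some genes were therefore measured only through the class where they were high, which bears on the counts and medians of the lists below. Another 172 genes passed 1.5-fold in 1 library only, and 1, Saa3, passed in opposite directions. The median log2 ratio over all measured genes was -0.05 in each library. Across these genes the ratios of the 2 libraries had a Pearson r of 0.892, where genes are not independent replicates and the points share their cells' classes.

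**Figure D3:**
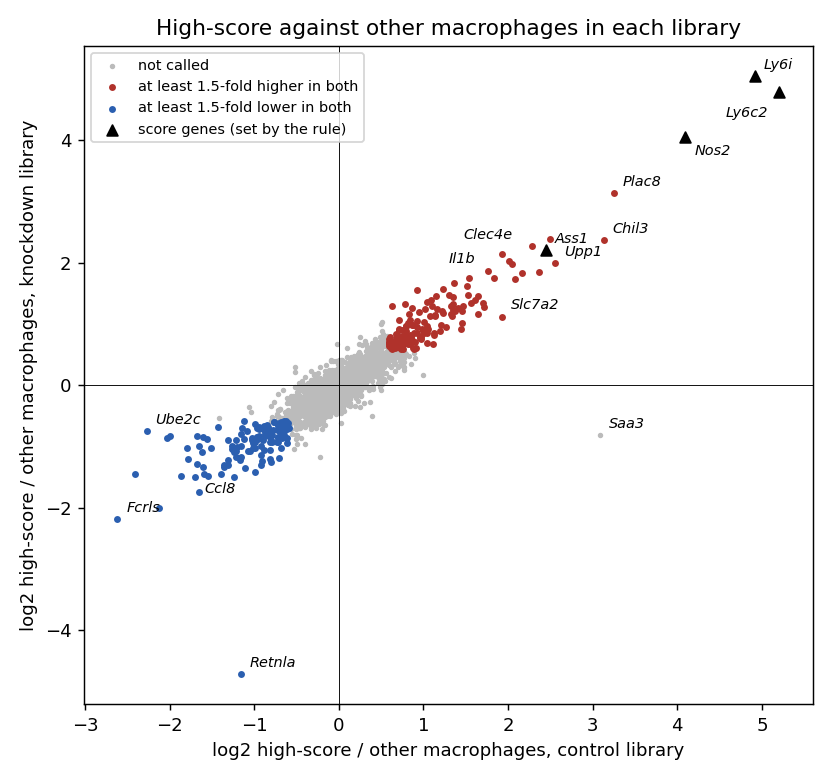
Each point is 1 of the 3061 measured genes, by its log2 ratio of high-score over other macrophages in the control library (horizontal axis) and in the knockdown library (vertical axis). Of genes outside the score Plac8 lies highest in each library, Fcrls lies lowest in control and Retnla in knockdown, and Saa3 lies in opposite directions.

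Genes of monocytes were higher. Of 15 measured genes of the monocyte list, 9 were higher in both libraries and 0 lower, with a median log2 ratio of 0.85 in control and 0.74 in knockdown. Plac8, a small protein abundant in monocytes, had 876 CPM in control high-score against 92.1 CPM in other macrophages, and 594 against 67.2 CPM in knockdown, ratios of 9.51 (8.999 to 10.06) and 8.83 (8.15 to 9.58). The monocytes had 4361 and 3478 CPM of it, so that the class lay between them and the other macrophages. Ccr2, the receptor that draws monocytes out of the bone marrow, had 253 against 101 CPM in control and 192 against 85.6 CPM in knockdown, below the 523 and 434 CPM of the monocytes. Chil3, a chitinase-like protein of monocytes, had 59.3 against 6.76 CPM and 61.9 against 11.9 CPM, and 536 and 887 CPM in the monocytes. Of the macrophage classes, only the high-score class reached 50 CPM of Chil3. Clec4e, a lectin receptor for microbial glycolipids, was 4.88-fold and 4.83-fold higher, and Il1b, the cytokine interleukin-1 beta, 3.41-fold and 3.66-fold. Ms4a4c, Samhd1, Thbs1 and S100a6 were the other 4 genes called, S100a6 only just in knockdown. S100a4, Lyz2, Cd44, Fn1, F13a1 and Itgam did not pass in both libraries, with ratios from 0.945 to 1.72.

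Like Plac8, Ccr2 and Chil3, the blood monocyte genes Hp and Vcan were below the monocytes' levels in the class. Hp, haptoglobin, had 16.3 CPM in control and 12.3 CPM in knockdown high-score macrophages, against 245 and 199 CPM in the monocytes, and Vcan, versican, 16.3 and 26.2 CPM against 94.3 and 169 CPM. Hp had 1.77 CPM in control and 1.12 CPM in knockdown macrophages without a score UMI, and 30.9 and 19.6 CPM in the top 5% by score. Vcan differed less, with 14.6 and 20.2 CPM against 22.6 and 30.8 CPM. In the class, Hp and Vcan were below the 50 CPM asked of a measured gene. The high-score macrophages kept C1q, which the rule required, at a median of 90.0 per 10000 in control and 80.7 in knockdown, against 151 and 143 in other macrophages.

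Genes of mature and resident macrophages were lower or close to the other macrophages. Of 16 measured genes of that list besides C1q, 0 were higher and 10 lower, with a median log2 ratio of -0.78 in control and -0.77 in knockdown. Fcrls, an Fc receptor-like gene of resident macrophages, had 38.1 against 234 CPM in control and 43.6 against 199 CPM in knockdown, the lowest of the genes named by rule. Mrc1, the mannose receptor CD206, had 109 against 268 CPM and 109 against 269 CPM. Folr2, a folate receptor of resident macrophages, had 24.0 against 87.6 and 36.1 against 100 CPM. Fcrls and Folr2 reached 50 CPM in the other macrophages only, and genes so measured can enter the count and median only as lower. Cx3cr1, the fractalkine receptor, had ratios of 0.330 and 0.397, Pf4 0.432 and 0.443, and Selenop, a selenium carrier, 0.482 and 0.475. Stab1, Adgre1, Maf and Ms4a7 were the other 4 called. Csf1r, the receptor for the macrophage growth factor CSF1, differed little, with ratios of 1.07 and 1.08. Apoe, an abundant lipid carrier, had ratios of 0.670 and 0.734.

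Of the label monocyte-derived macrophages, the data show both C1q and monocyte genes, and lineage was not measured. Markers of other cell types had a median of 0 UMIs per cell in the class for neutrophil, dendritic, T, NK, B, tumour, fibroblast, endothelial, epidermal, mast and erythroid lists. The list of plasmacytoid dendritic cells summed to 1173 and 1027 CPM against 1227 and 1042 CPM in other macrophages, nearly all from Bst2, Irf7 and Tcf4, with its defining marker Siglech at 0.320 and 2.78 CPM. The 9 neutrophil markers summed to 127 CPM in control and 146 CPM in knockdown high-score macrophages, against 65.9 and 82.1 CPM in other macrophages. Of the UMIs of S100a9, a marker of this list, 31 of 37 in control and 83 of 88 in knockdown lay in 1 high-score cell. Ly6g, the defining neutrophil antigen, was at 0 in each high-score class, which allows up to 0.961 and 1.19 CPM. The 10 T cell markers summed to 7.05 and 13.1 CPM, the 9 NK cell markers to 13.1 and 71.4 CPM, and the 10 dendritic cell markers to 141 and 216 CPM against 199 and 190 CPM, with Flt3, the dendritic cell growth factor receptor, at 0.320 and 1.19 CPM. The 8 tumour markers summed to 84.6 and 109 CPM, against 101 and 98.7 CPM in other macrophages. The macrophage rule set part of the T cell and tumour values. It held Cd3d and Cd3e of the T cell list at 0, and Hmga2 and Rhox5 of the tumour list together at most 2 UMIs per cell. The part of the marker lists in the differences was not tested. Scrublet, a program that finds barcodes holding a pair of cells, called 5 control and 8 knockdown high-score macrophages doublets. Between the libraries, 0 barcodes of the class were shared, and 5 barcodes of the class were also kept barcodes of the other library.

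The remaining genes that the ranking by interval named had mixed roles. F10, which encodes coagulation factor X, had 109 against 19.3 CPM in control and 100.3 against 19.1 CPM in knockdown. Ifitm1, an interferon-induced membrane protein, had 722 against 190.3 and 746 against 169 CPM. Tnfrsf9, the costimulatory receptor 4-1BB, was 4.04-fold and 4.09-fold higher, the orphan receptor gene Gpr141 4.24-fold and 3.32-fold, and Ccrl2, a chemerin-binding receptor, 2.85-fold and 3.07-fold. All 5 genes were higher in each library. Among the lowest were Hdac9, a histone deacetylase, at 26.6 against 116 CPM in control and 20.6 against 82.3 CPM in knockdown, and Hpgds, the prostaglandin D synthase, at ratios of 0.343 and 0.356. Fcgrt, the neonatal Fc receptor that recycles antibody, had ratios of 0.380 and 0.368, Itga6, an integrin chain, 0.392 and 0.404, and Cadm1, an adhesion molecule, 0.403 and 0.428. Pclaf, a replication factor, and Hist1h2bc, a histone gene, were also below 0.4 in each library.

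Genes of the arginine list besides the score genes were higher in part. Of 5 measured genes of the list, 2 were higher in both libraries and 0 lower, with a median log2 ratio of 0.55 in control and 0.69 in knockdown. Slc7a2, the cationic amino acid transporter that feeds arginine to nitric oxide synthase in activated macrophages, had 254 against 66.6 CPM in control and 215 against 98.9 CPM in knockdown, ratios of 3.82 (3.50 to 4.16) and 2.18 (1.97 to 2.40). Gch1, which starts the synthesis of the cofactor tetrahydrobiopterin, was 1.82-fold and 1.99-fold higher. Arg1, arginase 1, which splits the same arginine to urea and ornithine, had 1602 against 1095 CPM in control and 1233 against 765 CPM in knockdown, so that it passed 1.5-fold in the knockdown library only. Arg2 and Asl were under the level asked of a measured gene. Arg2 had 49.7 against 16.4 and 37.3 against 12.2 CPM. Asl differed little, at 33.6 against 30.1 CPM in control and 31.3 against 28.2 CPM in knockdown.

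Genes induced by interferon-gamma were higher in part. Of 18 measured, 5 were higher and 0 lower: Upp1, Cd274, Jak2, Socs1 and Cd40, with a list median log2 ratio of 0.41 in control and 0.49 in knockdown. Upp1, uridine phosphorylase, had 176 against 30.1 CPM in control and 185 against 46.3 CPM in knockdown. Cd274, the checkpoint ligand PD-L1, had 321 against 159 and 349 against 147 CPM, ratios of 2.02 and 2.37. Cxcl9, the chemokine that draws T cells, had 2265 against 1405 CPM in control and 3560 against 2479 CPM in knockdown and passed in control only. The interferon-gamma receptor gene Ifngr1 had ratios of 0.946 and 1.02. Among 12 measured GTPases that guard against vacuolar microbes, Gbp2, Gbp4 and Gbp5 were higher and 0 lower. Gbp2 had 720 against 370 CPM in control and 874 against 506 CPM in knockdown. Of 15 measured genes of the type I interferon list, 4 were higher, namely Isg15, Rsad2, Ifi205 and Ifi206, and 0 lower.

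Promoters are shown for 4 interferon genes that were higher, each of which holds a match to a motif given below. They are the 250 bases before the RefSeq gene start (GRCm38.p6), 5′ to 3′ on the gene's strand. Capitals mark matches on either strand to GAS (TTCNNNGAA, the form known from interferon-gamma response genes), ISRE (GAAA, 2 bases of any kind and GAAA again, the form bound by interferon regulatory factors) and a 10-letter NF-kB motif, with overlapping matches run together.
Gbp2, chr3:142620413-142620662, plus strand: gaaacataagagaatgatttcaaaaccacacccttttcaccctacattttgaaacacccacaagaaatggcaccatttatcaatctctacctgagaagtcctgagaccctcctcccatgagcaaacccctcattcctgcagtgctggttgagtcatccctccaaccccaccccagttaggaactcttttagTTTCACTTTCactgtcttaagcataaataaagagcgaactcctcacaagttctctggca
Gbp5, chr3:142496684-142496933, plus strand: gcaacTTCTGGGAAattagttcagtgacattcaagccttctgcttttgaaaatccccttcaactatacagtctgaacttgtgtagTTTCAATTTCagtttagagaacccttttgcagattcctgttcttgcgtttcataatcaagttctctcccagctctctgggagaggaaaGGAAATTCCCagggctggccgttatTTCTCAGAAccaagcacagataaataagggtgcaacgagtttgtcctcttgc
Socs1, chr16:10785537-10785786, minus strand: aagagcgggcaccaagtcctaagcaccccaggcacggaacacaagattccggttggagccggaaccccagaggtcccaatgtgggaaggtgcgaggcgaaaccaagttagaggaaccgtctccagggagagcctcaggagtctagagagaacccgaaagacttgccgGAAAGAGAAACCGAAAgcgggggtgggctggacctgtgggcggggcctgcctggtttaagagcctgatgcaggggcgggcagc
Isg15, chr4:156200819-156201068, minus strand: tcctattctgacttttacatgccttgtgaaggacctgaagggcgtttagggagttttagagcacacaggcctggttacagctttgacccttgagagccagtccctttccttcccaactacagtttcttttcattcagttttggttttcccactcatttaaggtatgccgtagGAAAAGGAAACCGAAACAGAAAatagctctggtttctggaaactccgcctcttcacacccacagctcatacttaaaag
Gbp2 holds 1 ISRE match, 59 to 50 bases before the start, Gbp5 holds matches to all the motifs, and Socs1 and Isg15 hold 2 and 3 overlapping ISRE matches. These letters are common: GAS was found in 7.02%, ISRE in 2.98% and NF-kB in 7.25% of all 32851 windows of that length. Of the 145 genes higher in the class besides score genes, 115 had a window, and 12.2% held GAS, 11.3% ISRE and 20.9% NF-kB. Of 2447 measured genes with a window the shares were 7.15%, 4.99% and 11.7%, and of 93 lower genes with a window 6.45%, 5.38% and 9.68%. Promoters of Ly6c2 and Ass1 held no match in this window, and Nos2 and Ly6i had no promoter entry. No window with a match was found for Upp1, Cd274, Jak2, Cd40 and Gbp4, so that the promoters shown do not stand for all interferon genes that were higher. A match is a description of letters and shows no binding.

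Inflammatory genes were found in both directions. Of 17 measured cytokine and chemokine genes, 7 were higher and 2 lower, with a median log2 ratio of 0.51 in control and 0.99 in knockdown. Ccl5, a chemokine for T cells and monocytes, had 4028 against 897 CPM in control and 3706 against 1041 CPM in knockdown, ratios of 4.49 and 3.56. Il1b and Clec4e were named above, and Cxcl2, Ptgs2 (cyclooxygenase 2), Il1rn (the interleukin-1 receptor antagonist) and Acod1 (the enzyme that makes itaconate) were between 2.13-fold and 3.38-fold higher. Ccl8, a monocyte-attracting chemokine, was lower, at 385 against 1251 CPM in control and 808 against 2277 CPM in knockdown, and so was Ccl12. Il12b, a subunit of interleukin-12, known from classical activation, was at 1.60 CPM in control high-score macrophages and at 0 of 2522157 UMIs in knockdown, which allows up to 1.19 CPM, and Il6 was at 3.53 and 3.57 CPM. Of 10 measured NF-kB feedback genes, 5 were higher and 0 lower, among them Tnfaip2 and the mitochondrial superoxide dismutase Sod2, which was 3.14-fold and 2.75-fold higher. The 6 genes of the phagocyte oxidase, the other source of radicals in these cells, had 0 calls, with Cybb at ratios of 1.57 and 1.33. In so short a list nothing is read from 0 calls.

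Metabolic lists differed in their median log2 ratios, which were 0.54 in control and 0.56 in knockdown for glycolysis and hypoxia. Of 21 measured genes of glycolysis and hypoxia, 8 were higher and 0 lower: Slc2a1, the glucose transporter GLUT1, at 229 against 109 CPM in control and 163 against 74.9 CPM in knockdown, and Hk2, Hif1a, Vegfa, Bnip3, Egln3, Ero1l and Ndrg1. The abundant glycolytic enzymes differed less, with ratios of 1.16 and 1.27 for Gapdh. The 26 measured genes of oxidative phosphorylation had 0 calls and medians of -0.07 and -0.09, close to the -0.05 of all genes, and the 8 of the tricarboxylic acid cycle had 0 calls. With 4.87% of all measured genes called higher and 4.02% lower, nothing is read from these 0 calls. Slc7a11, the cystine transporter, was 5.16-fold and 3.61-fold higher. Of 13 measured genes of lipid-associated macrophages, Mmp12, Cd9 and Cstb were higher and Cd63 lower, where Mmp12 turned to a log2 ratio of -0.60 in control and -0.57 in knockdown with Nos2 left out of the score and to -0.17 in control at 2000 to under 5000 UMIs, and Spp1 had ratios of 0.801 and 0.682. Of the 18 cholesterol synthesis genes 0 had enough UMIs. Atf6 and Gnptab, the 2 measured genes of the site-1 protease pathway, were not called.

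Genes of dividing cells were lower in sum. Over all 20 listed cell cycle genes the class had 983 against 2028 CPM in control and 1415 against 2409 CPM in knockdown. Summed per cell and scaled as the score was, the medians were closer, at 6.56 against 7.86 in control and 8.90 against 11.4 in knockdown. Of 9 measured cell cycle genes, 0 were higher and 8 lower, with a median log2 ratio of -1.55 in control and -0.83 in knockdown. Mki67 had 23.1 against 65.9 CPM in control and 37.3 against 76.2 CPM in knockdown. It reached 50 CPM in the other macrophages only. Genes so measured can enter only as lower, so that nothing is read from this count and median. Few antigen presentation genes were called. Of 10 measured MHC class II genes 1 was higher in both libraries, H2-Ab1, at 6561 against 3482 CPM in control and 5477 against 3580 CPM in knockdown, and of 17 measured MHC class I genes 0 were called in either direction, against 4.87% of all measured genes called higher, so that nothing is read from these counts. The median log2 ratio of the class II list was 0.67 in control and 0.35 in knockdown, and that of the class I list 0.29 and 0.19. Genes that respond to tissue dissociation were called in 2 of 19 cases, Ier3 and Dusp1, with list medians of 0.40 and 0.56. Percent mitochondrial UMIs had medians of 1.85 and 1.30 in the class against 2.12 and 1.57 in other macrophages.

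Along the score, several of these genes differed step by step and not at the limit alone. In control, Plac8 had 66.9 CPM in macrophages without a score UMI, 124 CPM below the limit, 527 CPM in the class below the top 5% of macrophages and 1824 CPM in the top 5%. In knockdown it had 48.4, 95.7, 383 and 1127 CPM. Mrc1 went the other way, with 319, 204, 133 and 42.8 CPM in control and 312, 204, 128 and 58.8 CPM in knockdown. Gbp2 stood at 316, 438, 651 and 909 CPM in control and 466, 566, 827 and 991 CPM in knockdown. Arg1 levelled off instead, at 1612 and 1572 CPM in the upper 2 steps of control and 1223 and 1260 CPM in those of knockdown.

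**Figure D4:**
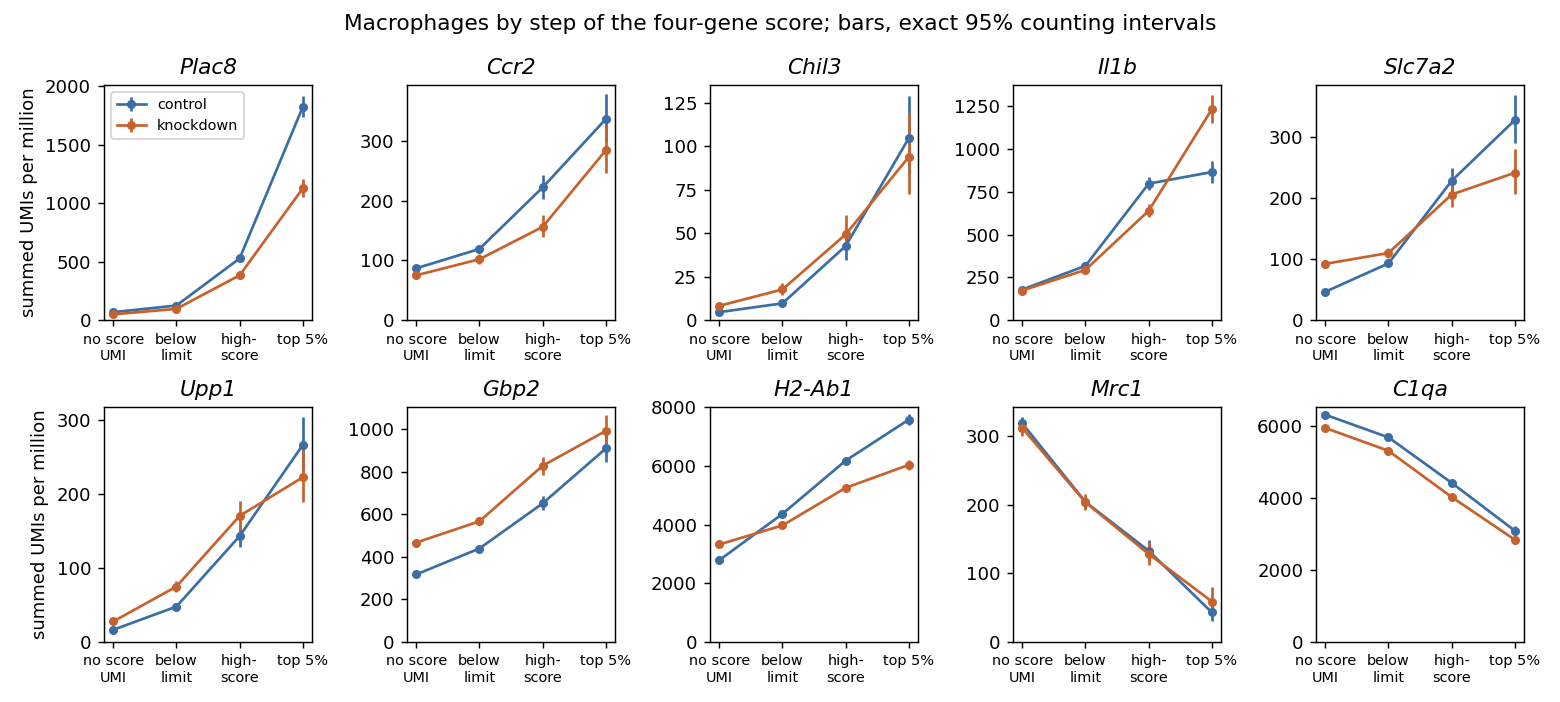
Level of 10 genes (vertical axes, CPM, with exact Poisson intervals) in macrophages without a score UMI, with a score below the limit, in the high-score class below the top 5%, and in the top 5% of macrophages, by library. Plac8 reaches 1824 CPM in control and 1127 CPM in knockdown at the top step, while Mrc1 and C1qa are lowest there.

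High-score macrophages were not alike when grouped by the score gene with the most UMIs. Nos2 led in 117 control and 153 knockdown cells, Ly6i in 133 and 156, Ly6c2 in 165 and 157 and Ass1 in 75 and 65, and 57 and 88 cells were tied. Cells led by Nos2 had 2687 CPM of Arg1 in control and 1876 CPM in knockdown, and cells led by Ly6c2 had 916 and 946 CPM. Slc7a2 was at 425 and 355 CPM against 114 and 79.4 CPM in the same groups, and Acod1 at 404 and 492 CPM against 162 and 261 CPM. Monocyte genes had the opposite order: Plac8 was at 293 and 156 CPM in cells led by Nos2 and at 1718 and 1203 CPM in cells led by Ly6c2, Ccr2 at 90.0 and 48.6 CPM against 453 and 262 CPM, and Chil3 at 7.20 and 20.5 CPM against 135 and 173 CPM. For Ccr2, cells led by Nos2 were thus below the 101 and 85.6 CPM of the other macrophages. Cells led by Ly6i had the most H2-Ab1, at 9220.2 and 7617 CPM, and more Cxcl9 than those led by Ly6c2, at 3206 and 4097 CPM against 1417 and 2848 CPM. Depth also differed, with a median of 6751 and 4664 UMIs in cells led by Nos2 and 4191 and 2968 UMIs in those led by Ly6c2, and its part was not tested.

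**Figure D5:**
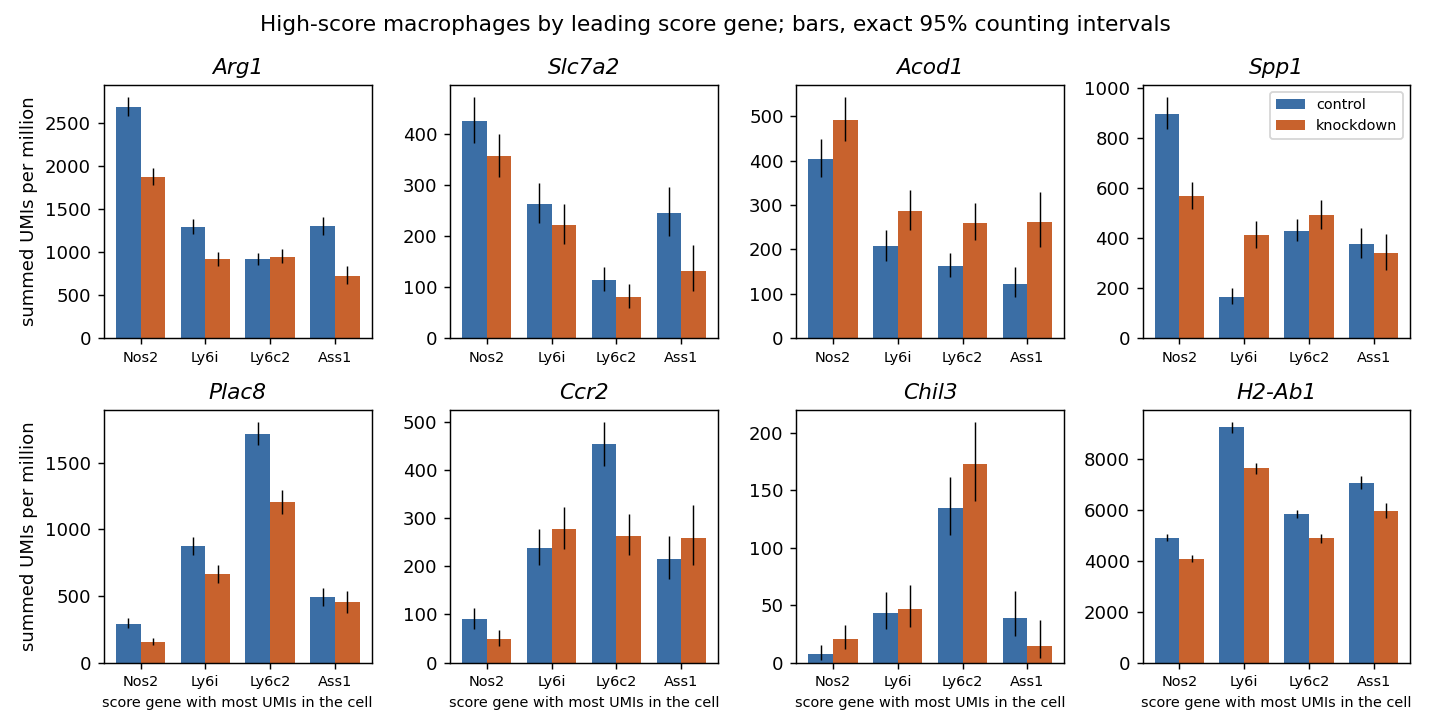
Level of 8 genes (vertical axes, CPM, bars from 0 with exact Poisson intervals) in high-score macrophages grouped by the score gene with the most UMIs in the cell, by library. Arg1, Slc7a2 and Acod1 are highest in cells led by Nos2, and Plac8, Chil3 and, in control, Ccr2 in cells led by Ly6c2.

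The class overlapped in part with other ways of grouping the same macrophages. Of its cells, 326 (28.0%) were also in the top 15% by Nlrp3 and Ptgs2, 167 (14.3%) in that by Spp1, Mmp12 and Fabp5, and 44 (3.77%) in that by Cd72, Slamf9 and Negr1. The overlap with the top 15% by Mrc1, Stab1 and Fcrls was 27 cells (2.32%). Each of these lists held 1166 cells but that of Cd72, Slamf9 and Negr1, which held 1167, so that the shares of both lists are alike. Of other macrophages, the top by Nlrp3 and Ptgs2 held 12.5% in control and 12.9% in knockdown, and that by Mrc1, Stab1 and Fcrls 17.4% and 17.1%. The top by Spp1, Mmp12 and Fabp5 held 14.99% and 15.25% of them, and that by Cd72, Slamf9 and Negr1 17.2% and 16.7%. For Spp1, Mmp12 and Fabp5 the class, at 13.9% and 14.7%, was thus close to the other macrophages. Its share was above theirs for Nlrp3 and Ptgs2 and below theirs for the remaining lists.

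Between the libraries, the score genes of the class, which share a limit, had knockdown over control ratios of 1.19 for Nos2, 1.05 for Ly6i, 0.909 for Ly6c2 and 0.822 for Ass1. Mbtps1 itself was low in the class, at 14.4 CPM in control and 17.4 CPM in knockdown, and at 19.9 and 20.5 CPM in other macrophages. Of 3089 genes measured in the class, 55 (1.78%) were at least 1.5-fold higher and 39 (1.26%) at least 1.5-fold lower in knockdown. For this comparison a gene needed at least 50 UMIs over both libraries and 50 CPM in 1 of them. Some genes were therefore measured only through the library where they were high. In other macrophages, where 3156 genes were measured, 18 (0.57%) were higher and 11 (0.349%) lower. The class held 3120549 UMIs in control and 2522157 in knockdown, against 25281368 and 14864942 in other macrophages. Depth per cell and the NK cell markers, at 13.1 and 71.4 CPM, moved with the library, and their part in these calls was not tested. Of the 94 genes called in the class, 73 were also measured in other macrophages, and 14 of them were called there in the same direction.

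Cell cycle genes were the list with the most genes called higher in knockdown in the class. Of 7 measured, 5 were higher in knockdown, Ube2c, Top2a, Birc5, Hmgb2 and Stmn1, and 0 lower, with a median log2 ratio of 0.62. In other macrophages 0 of 11 were called and the median was 0.22. A gene had to reach 50 CPM in 1 library only, and Ube2c did so in knockdown alone. Genes can thus enter through the library where they are high, so that nothing is read from this count or median. Ube2c, a ubiquitin enzyme of mitosis, had 19.2 CPM in control and 60.3 CPM in knockdown high-score macrophages, a ratio of 3.13 (2.31 to 4.30), against 92.8 and 101 CPM in other macrophages. These are small counts, with 60 and 152 UMIs of Ube2c in 37 and 82 cells of the class.

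Of 17 measured inflammatory genes, 4 were higher in knockdown, Ccl8, Cxcl2, Nlrp3 and Tnf, and 1 lower, Saa3, in which 1 control cell held 90.4% of the UMIs. Egr1, an immediate early transcription factor, had 34.3 CPM in control and 105 CPM in knockdown, a ratio of 3.08 in the class and 1.78 in other macrophages. Ccl8 had a ratio of 2.10 in the class and 1.82 in the others, and Cxcl9 1.57 and 1.76, so that they were higher in both classes of the knockdown library. Cxcl2, a neutrophil-attracting chemokine, had 775 and 1217 CPM, a ratio of 1.57 against 1.27 in others. Nlrp3, the inflammasome sensor, had ratios of 1.60 and 1.13, Mmp12, a macrophage elastase, 1.55 and 0.980, Cd83 1.55 and 0.940, and Dusp2 1.95 and 0.994. Csrnp1, an early response gene, had ratios of 2.03 and 1.35. Serpina3g, an interferon-induced protease inhibitor, had 1.81 and 1.57, Itgal, an integrin chain of leukocytes, 1.64 and 1.44, and Calhm6 1.53 and 1.42, in the class and in other macrophages. For Dusp2 the log2 ratio in the class exceeded that in others by 0.97 (0.60 to 1.34) and for Cd83 by 0.72 (0.52 to 0.93), intervals of counting error within these libraries. Of the Mmp12 UMIs of the class, 10.3% in control and 17.8% in knockdown lay in 1 cell, and without the highest cell of each class its knockdown over control log2 ratio was 0.50, below 1.5-fold.

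Of 17 measured genes of the type I interferon list, 2 were lower in knockdown, Isg15 and Ifit1, and 0 higher, with a median log2 ratio of -0.22 in the class and -0.26 in other macrophages, while of all measured genes 1.26% were lower. Isg15, a ubiquitin-like protein induced by type I interferon, had 514 CPM in control and 336 CPM in knockdown, a ratio of 0.655 in the class and 0.676 in other macrophages. Ifit1 had 137 and 76.9 CPM, with a ratio of 0.561 against 0.996 in others, and 19.6% of its control UMIs lay in 1 cell. Spon1 and Nrg1, the growth factor neuregulin 1, had ratios of 0.282 and 0.328, against 0.621 and 0.639 in others, and Bag3, a co-chaperone, 0.514 against 0.713. Slfn4, a myeloid gene induced by interferon, had 0.465 against 0.695, and Btg2, an antiproliferative early gene, 0.566 against 0.515. Ddit4, Gclc, Sik1 and Cpeb2, of which Gclc makes the first step of glutathione synthesis, had ratios from 0.465 to 0.541 in the class and from 0.782 to 0.868 in others. Gclc was not lower among cells of 2000 to under 5000 UMIs. Of 15 measured monocyte genes 0 were called, but Plac8 had a ratio of 0.677 and Ms4a4c 0.694, just short of 1.5-fold, with 0.730 and 0.723 in other macrophages. The MHC class II list had 0 calls of 10 and a median log2 ratio of -0.26 in the class, against 0.03 in other macrophages.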

How the data were processed

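The 2 droplet libraries were prepared by 10x 3' chemistry. Per the labels' protocols, each channel took about 6000 cells for an aim of 3000. The authors deposited unfiltered matrices of UMI counts for 32285 features, made by Cell Ranger 4 per the file headers. Their genome build and gene annotation were not given in the sources used here. Barcodes listed were 1688458 in control and 1769772 in knockdown, with 177399315 and 174190399 UMIs, and 12353 and 16010 barcodes passed at least 1000 UMIs and at most 20% mitochondrial UMIs, more than were loaded. Among these, 51 barcode sequences occurred in both libraries.

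Summed UMIs of a class were expressed as CPM within its library. Ratios carry conditional exact 95% intervals. No test was made. Called means at least 1.5-fold. Genes were measured at 50 UMIs and 50 CPM. The rule for named genes took the 15 highest and 15 lowest of high-score over other macrophages and the 12 highest and lowest of knockdown over control by the interval end nearest 1, the monocyte and score genes, and for each list the 2 highest levels and extreme ratios, leaving out mitochondrial, ribosomal, haemoglobin, receptor segment and unnamed genes and those not above empty droplets. Other members of the gene and marker lists, Mbtps1, Cd72, Slamf9 and Retnla were named after their values were seen. The members and lists were chosen with earlier results of these data known. The call rule was run on simulated Poisson sums. These had no spread between cells and no choice of cells by score, so that the simulation does not bear on either. Doublets were called with Scrublet in Scanpy 1.11.5 and kept in the classes. Promoters came from RefSeq (GRCm38.p6) and positions from GENCODE vM21, in which 99.8% of feature identifiers were found. The 18 planned and 3 added alternatives were run. Some genes of the lists are not reported here.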

Additional observations from a re-analysis of the deposited data

Results flagged for a closer look

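Saa3, an acute phase gene, differed in direction between the libraries, which was not tested. It was 8.49-fold higher in high-score than in other macrophages in the control library (147 against 17.3 CPM) and had a ratio of 0.569 in the knockdown library (46.4 against 81.5 CPM). Of its 458 UMIs in the control class, 414 (90.4%) lay in 1 cell.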

How the results depend on the processing

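No paired analysis was possible because each group holds 1 library. Taking the top 15% of each library separately sets the share ratio to 1 by construction. The share ratio was 1.11 after thinning to 1000 UMIs, where a single UMI entered the class, and, as alternatives added after the data were seen, 0.904 at 2000 to under 5000 UMIs and 1.14 at 5000 to under 10000, and it lay between 1.22 and 1.38 under the other alternatives run for it. The ratio was also 1.95 at 1000 to under 2000 UMIs, 1.15 from 5000 and 1.07 from 10000. Genes higher in the class numbered 83 after thinning, and genes lower 74 after thinning and 266 with a minimum of 20 UMIs and 20 CPM. Genes higher in knockdown within the class, 55 as reported, numbered 33 at the top 20%, 159 after thinning, 241 with the lower minimum, and 165 and 171 in the 2 bands of depth. Genes lower in knockdown, 39 as reported, numbered 70 at the top 10%, 119 after thinning, 114 with the lower minimum, and 127 and 100 in the 2 bands. Thinning and the bands leave fewer UMIs per class. Scaling by the median ratio gave 170 higher and 106 lower genes in the class. On the log2 scale, Mmp12 in the class turned to -0.60 (control) and -0.57 (knockdown) without Nos2 in the score and to -0.17 (control) at 2000 to under 5000 UMIs. Saa3 in knockdown over control turned to 1.32 without the highest cell of each gene and to 0.076 at 2000 to under 5000 UMIs, where Gclc turned to 0.10. The causes were not tested. With 1 library per group no comparison has a replicate, and the class held 3120549 and 2522157 UMIs.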

Other observations

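Retnla, which encodes the alternative activation product RELM-alpha, had the lowest ratio of all measured genes in the knockdown library and was looked at after its values were seen. It had 17 UMIs in 9 of 619 knockdown high-score macrophages and 2640 UMIs in 117 of 2977 other macrophages, 6.74 against 178 CPM, with 993 of those UMIs in 1 cell. In control it had 98 UMIs in 9 of 547 high-score and 1774 UMIs in 68 of 3635 other macrophages, 31.4 against 70.2 CPM.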
